A study of Culter alburnus with 6 samples.

Results

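The salt-inducible kinases and the other kinases related to AMPK were followed in TCCF2022 cells, a fibroblast-like line from the caudal fin of Topmouth culter (Culter alburnus), with and without Forskolin. Forskolin raises cAMP in cells by switching on adenylate cyclase. A row of the expression table is an assembled gene, and a row was taken as a member when its best protein match in NR or in Swiss-Prot was named as a SIK1, SIK2 or SIK3 kinase, a subunit of AMPK, a NUAK or a MARK. This gave 33 of 61608 rows. By family, 13 rows were named as SIK, 5 as NUAK, 8 as AMPK subunits and 7 as MARK.

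The F group was 3 libraries of cells kept in 5 µM Forskolin, and the CK group was 3 libraries of cells without Forskolin. All 6 were collected at day 7 and were wild type. Both groups grew at 27 °C and 5% CO2 in DMEM/F12 with 10% FBS and 5 ng/mL bFGF, and part of the medium was renewed every 3 days. These conditions are those of the sample labels, and the methods of the paper give other bFGF and Forskolin concentrations in places. All libraries came from 1 cell line, and no label ties them to separate fish, so the p-values measure the spread between these cultures. Levels are in TPM, a relative transcript abundance that corrects for transcript length but keeps no record of the number of reads. The paper states an average read yield per replicate. The read count behind each value is unknown, so no counting interval is given.

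In mammals, SIK, NUAK, MARK and AMPK share a related kinase domain and are switched on by the kinase LKB1 (stk11). AMPK is a complex of a catalytic alpha subunit, a scaffolding beta subunit and a nucleotide-binding gamma subunit, and it responds to low cellular energy. The SIK kinases hold the CRTC coactivators of CREB and the class IIa histone deacetylases in the cytoplasm, where they are bound by 14-3-3 proteins. PKA, the kinase that cAMP activates, inhibits the SIK kinases by phosphorylation, and SIK1 is itself a known CREB target gene. These statements are background, since RNA levels show neither the activity nor the phosphorylation of a kinase.

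The annotation of the rows set how far a name could be trusted. A Swiss-Prot match to a kinase of the rule was present for 18 of the 33 rows, and 12 of these carried the Pfam domain Pkinase. The other 6 of the 18 were AMPK beta and gamma subunits, which are not kinases themselves. The remaining 15 rows were named by NR and not by Swiss-Prot, carried no Pkinase domain and had group means of at most 6.45 TPM. In 3 of these 15, named as partial SIK2, the Swiss-Prot match was the retrotransposon-derived protein PEG10, so their NR name is doubtful. Both rows treated here as sik1 were called SIK1 by KEGG, but the other databases disagreed. The row TRINITY_DN6166_c0_g2 was SIK1 in NR and SIK2 in Swiss-Prot, and the row TRINITY_DN760_c0_g1 was SIK2-like in NR and SIK1 in Swiss-Prot. Whether they are paralogs or pieces of 1 gene was not tested. Where a name covers several rows, the number of the Trinity component (DN6166, DN760) is given with it.

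Differences were tested as log2(TPM + 1) with limma, leaving out rows that reached 1 TPM in fewer than 3 of the 6 libraries, which kept 37532 rows, with Benjamini-Hochberg adjustment over all of them. A log2 change is F minus CK, and calls needed both an adjusted p below 0.05 and a change beyond 1 in either direction. Of the 33 rows, 27 could be tested. Among these 27, 4 were called higher (14.8%), beside 3.27% of all rows tested, and 3 were called lower (11.1%), beside 3.90% of all rows. Without the fold threshold, 5 passed as higher, where 6.15% of all rows did, and 4 passed as lower, where 6.07% did. The median change was 0.03 over the 27 rows and -0.01 over all rows tested. The nuak2 row reached 1 TPM in F libraries only, and the rows nuak1 (DN4594) and sik3-like (DN10514 g6) in CK libraries only, so these 3 entered the test through the group where they were high. With 3 libraries against 3, an exact permutation test of a single value cannot go below p = 0.1.

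Both sik1 rows and the sik2 row were much higher in F cells. The row sik1 (DN6166) measured 36.4, 38.7 and 40.2 TPM in the F libraries, against 4.95, 4.24 and 3.73 TPM in the CK libraries. Its mean level was 38.4 ± 1.88 TPM in F and 4.31 ± 0.61 TPM in CK (SD, n = 3 each), an 8.92-fold ratio. Every F library was far above every CK library, and the log2 change was 2.90 (95% interval 2.62 to 3.18, limma adjusted p = 0.000149).

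The row sik1 (DN760) measured 24.5, 27.9 and 29.6 TPM in the F libraries, against 2.49, 2.49 and 1.84 TPM in the CK libraries, a 12-fold ratio of the means. The groups were again well apart, with a log2 change of 3.12 (95% interval 2.77 to 3.46, limma adjusted p = 0.000223). Both rows carried a Pkinase domain. Among the 439 tested rows with that domain, which may belong to any protein kinase, these rows ranked 1 and 2 by the size of the rise, with sik1 (DN760) first, and among all 37532 rows they ranked 71 and 93. Of the 439, 20 were called higher (4.56%) and 17 lower (3.87%).

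The sik2 row (TRINITY_DN15301_c0_g1), on whose name NR, Swiss-Prot and KEGG all agreed, measured 8.38, 10.1 and 9.69 TPM in the F libraries, against 1.25, 1.59 and 1.19 TPM in the CK libraries. This was a 6.98-fold ratio of the means and a log2 change of 2.15 (95% interval 1.73 to 2.57, limma adjusted p = 0.00138). The groups did not overlap. It ranked 6 among the rows with a kinase domain. The sik2 row remained below both sik1 rows in every library of either group. The calls of the sik1 and sik2 rows held when any 1 library was left out.

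The sik3 row did not pass. It measured 18.6, 24.5 and 16.9 TPM in the F libraries, against 14.8, 17.5 and 14.8 TPM in the CK libraries. The groups overlapped, and the log2 change was 0.32 with a 95% interval of -0.06 to 0.69 (limma adjusted p = 0.273), an upper bound well under the changes of sik1 and sik2. The difference between the changes of sik2 and sik3 was taken within each library. On the log2 scale, the sik2 level minus the sik3 level was -1.06, -1.20 and -0.74 in the F libraries, against -2.81, -2.83 and -2.85 in the CK libraries. The gap was thus narrower in all 3 F libraries, and the difference between the groups was 1.83 ± 0.14 (SE, exact permutation p = 0.1, the smallest possible, and 0.117 after adjustment over 7 such pairs).

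The composition of the SIK pool differed between the groups. The 4 rows with a kinase domain (both sik1 rows, sik2 and sik3) summed to 95.1 ± 6.69 TPM in F and 23.6 ± 2.11 TPM in CK (SD, n = 3 each), a 4.03-fold ratio. The sik1 rows held 69.4%, 65.9% and 72.4% of this sum in the F libraries, against 31.7%, 26.1% and 25.9% in the CK libraries. The sik3 row held 21.1%, 24.2% and 17.5% of it in the F libraries, against 63.0%, 67.7% and 68.6% in the CK libraries. In F cells sik1 was thus the main SIK transcript, and in CK cells it was sik3. If the sik1 rows are pieces of the same gene, the sum and these shares count that gene in both rows. The row sik1 (DN6166) alone was also above sik3 in every F library and below it in every CK library. The share of sik2 was 9.85% ± 0.27 in F and 5.67% ± 0.44 in CK (SD, n = 3 each). None of these shares overlapped between the groups, and each gave an exact permutation p of 0.1.

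**Figure D1:**
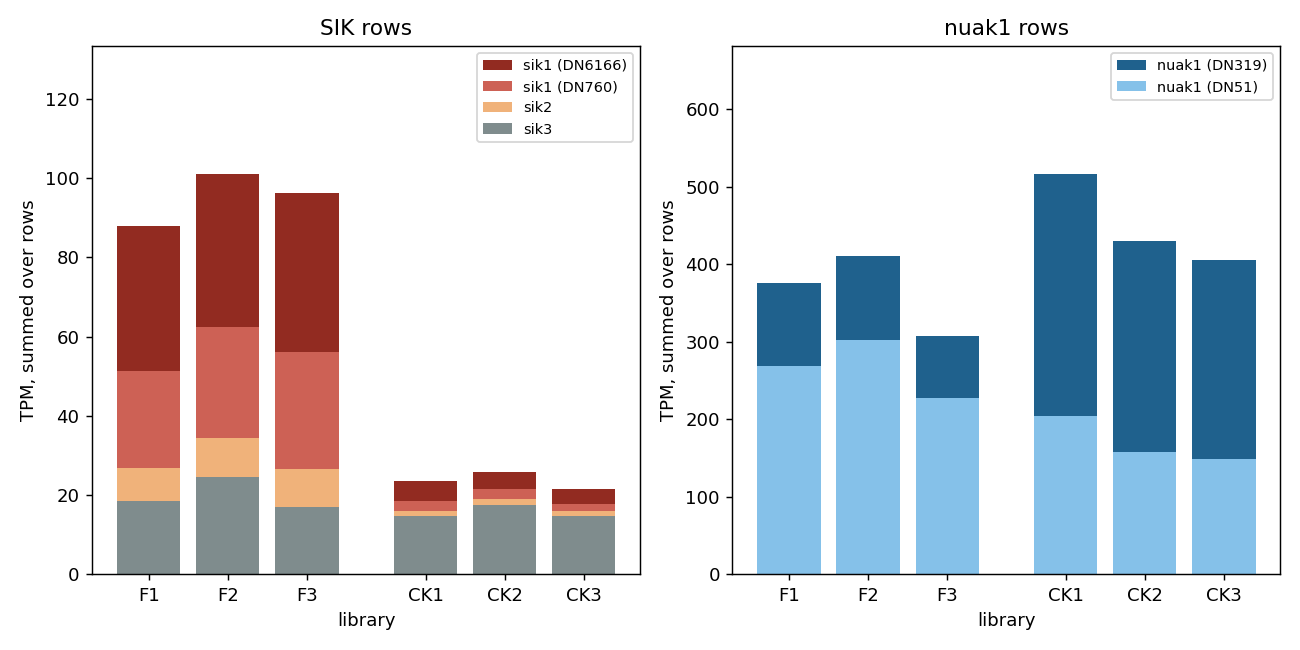
Stacked bars of TPM summed over the SIK rows with a kinase domain (left panel) and over the 2 abundant nuak1 rows (right panel), with 1 bar per library, F1 to F3 left of CK1 to CK3. The SIK bars reach 87.9 to 101.1 TPM in F and 21.6 to 25.8 TPM in CK, with most of the gap in the sik1 segments, while the nuak1 segments trade places between the groups.

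The 2 sik1 rows moved almost in parallel. On the log2 scale, sik1 (DN6166) lay above sik1 (DN760) by 0.55, 0.46 and 0.43 in the F libraries and by 0.77, 0.59 and 0.74 in the CK libraries. The difference of these gaps was -0.22 ± 0.07 (SE, exact permutation p = 0.1), which is small beside the changes of the rows themselves.

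The other 9 SIK-named rows, which NR alone named, were low. Group means lay between 0.24 and 3.96 TPM in F and between 0.99 and 6.45 TPM in CK. Of the 6 that could be tested, only sik3-like (DN10514 g6) passed, with 0, 0.72 and 0 TPM in the F libraries against 2.04, 2.98 and 2.64 TPM in the CK libraries (log2 change -1.56, limma adjusted p = 0.0305). The groups were apart, but the row is near the filter, has no domain, and lost its call when any library other than F2 was left out. The sik3-like (DN6690) row was low in both groups, at 1.14, 0.78 and 1.59 TPM in F and 1.90, 1.75 and 2.41 TPM in CK, with no overlap but no call (limma adjusted p = 0.324). A row of the same component as DN10514 g6, sik3-like (DN10514 g2), had a log2 change of -0.41 and did not pass (limma adjusted p = 0.531). The 3 PEG10-matched rows had log2 changes between -0.21 and 0.25 and did not pass. Of the untested rows, sik2-partial (DN30176) was at 0 TPM in 4 of the libraries, with 3.27 TPM in F2 and 19.4 TPM in CK2, and sik3-like (DN4674) was above 0 TPM only in F3 and CK1, at 5.07 and 3.20 TPM. The last untested row of these 9, sik3-like (DN21570), had 0.61 to 0.67 TPM in F and 0.68 to 1.20 TPM in CK.

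**Figure D2:**
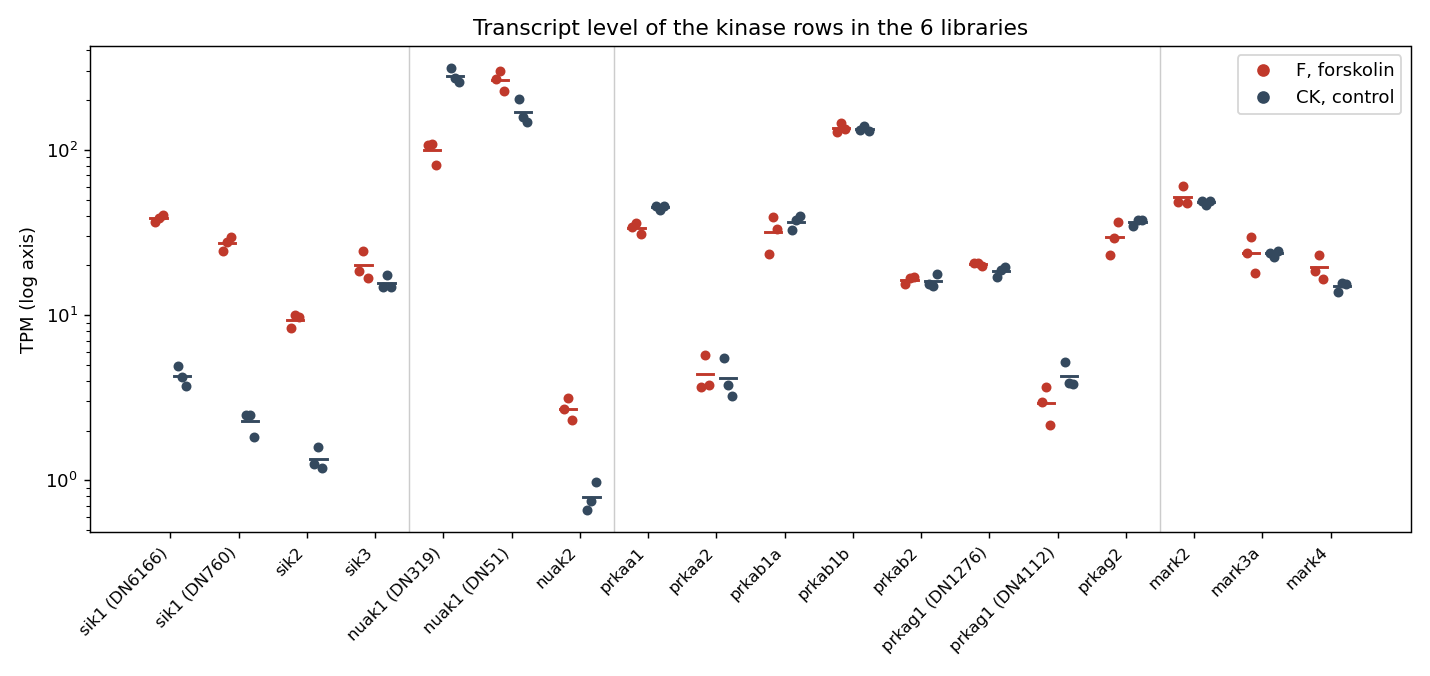
TPM on a log axis of the 18 rows with a Swiss-Prot match to a SIK, NUAK, AMPK or MARK protein. Points are libraries and short lines are means, with F left of CK for each row. The sik1, sik2 and nuak2 rows are higher in F, nuak1 (DN319) is lower in F, and most AMPK and MARK rows have groups that overlap.

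The NUAK kinases, known in mammals for roles in cell adhesion and actomyosin tension, moved in both directions. The 2 abundant nuak1 rows were the highest of all members in CK cells. The row nuak1 (DN319) measured 107.6, 108.7 and 81.2 TPM in the F libraries, against 312.9, 273.3 and 256.8 TPM in the CK libraries. All F libraries were below all CK libraries, with a log2 change of -1.50 (95% interval -1.83 to -1.17, limma adjusted p = 0.00213). This call held when any 1 library was left out.

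The row nuak1 (DN51) went the other way at a smaller size. It measured 268.6, 302.1 and 226.9 TPM in the F libraries, against 203.7, 157.4 and 148.3 TPM in the CK libraries. The groups did not overlap, and the log2 change was 0.65 (95% interval 0.27 to 1.03, limma adjusted p = 0.0465). It lost significance without F1, F2, CK2 or CK3, with adjusted p of 0.0377 to 0.147 over the 6 fits that each left out 1 library.

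Together these nuak1 rows summed to 365.0 ± 52.3 TPM in F and 450.8 ± 58.4 TPM in CK (SD, n = 3 each), and the groups overlapped (exact permutation p = 0.2). If they are pieces of 1 gene, the sum counts that gene in both. Within the sum, nuak1 (DN319) held 28.6%, 26.5% and 26.4% in the F libraries, against 60.6%, 63.5% and 63.4% in the CK libraries. The larger row of the pair was therefore nuak1 (DN51) in every F library and nuak1 (DN319) in every CK library. The gap between them changed by 2.15 ± 0.08 on the log2 scale (SE, exact permutation p = 0.1, adjusted 0.117). Summed over all 4 nuak1-named rows, the log2 change was -0.31 and did not pass (limma adjusted p = 0.234). NR, Swiss-Prot and KEGG gave nuak1 (DN319) and nuak1 (DN51) the same names, and both carried a Pkinase domain. Whether these rows are paralogs or pieces of 1 gene was not tested. The other nuak1 rows were named by NR only.

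The nuak2 row measured 2.69, 3.13 and 2.31 TPM in the F libraries, against 0.66, 0.75 and 0.97 TPM in the CK libraries, a 3.42-fold ratio of the means. The groups were apart, and the log2 change was 1.05 (95% interval 0.47 to 1.63, limma adjusted p = 0.0391). All CK values lay under the 1 TPM minimum, and leaving out any 1 library moved the adjusted p to between 0.0704 and 0.119. The minor row nuak1 (DN4594), without a domain, measured 0.42, 0.77 and 0.42 TPM in the F libraries, against 2.42, 2.23 and 2.24 TPM in the CK libraries (log2 change -1.11, limma adjusted p = 0.0361). Its groups did not overlap either, and its call was likewise lost without any 1 library. The row nuak1 (DN26657) had at most 1.25 TPM in any library and was not tested.

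**Figure D3:**
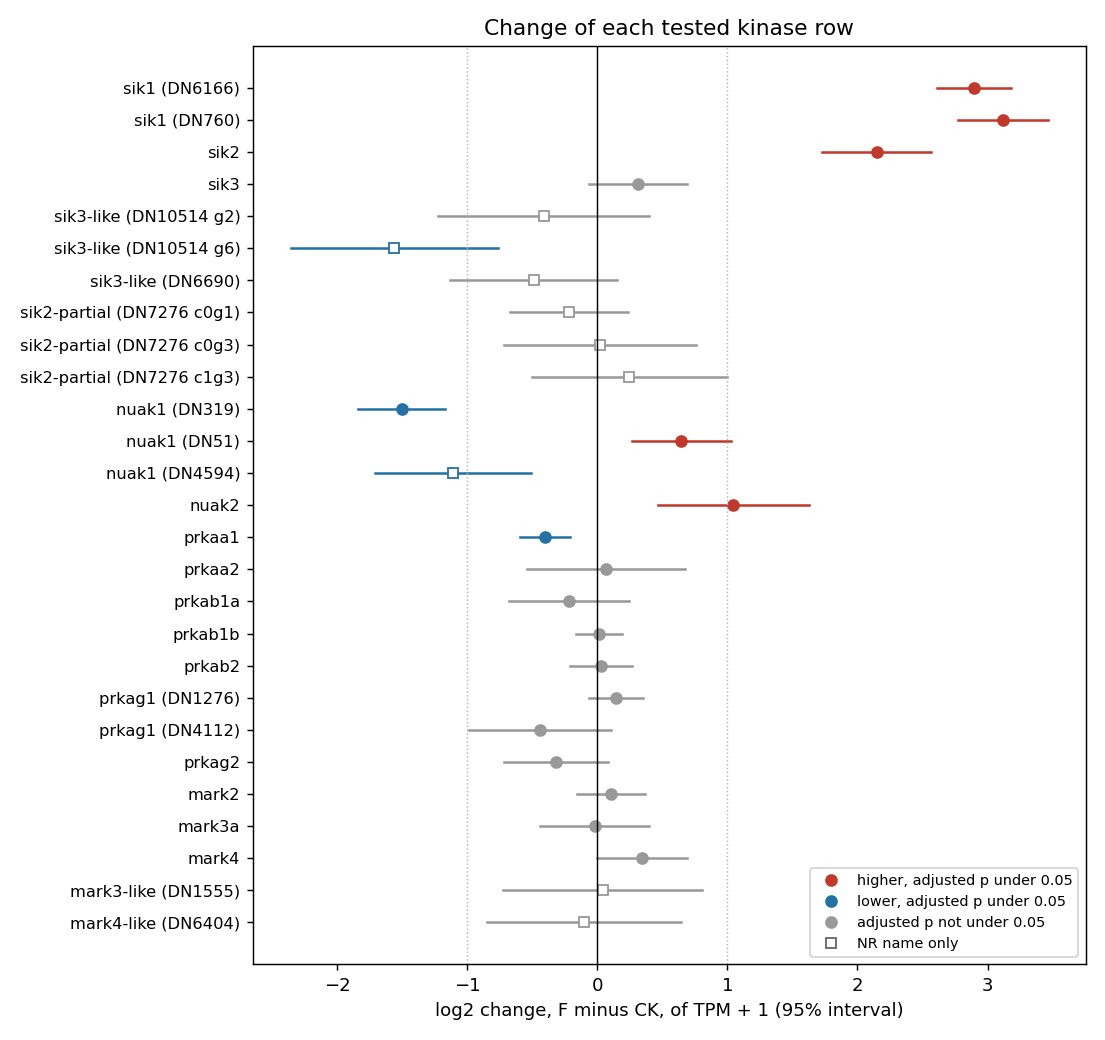
Log2 change of TPM + 1, F minus CK, with the 95% interval from limma, for the 27 tested rows. Filled circles have a Swiss-Prot match to a kinase of the rule. Open squares (NR name only) have an NR name without that match, and dotted lines mark changes of 1 and -1. The sik1 rows (2.90 and 3.12) and sik2 (2.15) stand to the right of the rest, and the AMPK and MARK intervals are near or across 0.

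The log2 changes of the AMPK subunit rows lay between -0.44 and 0.15, though several of their 95% intervals were wide. Of 8 rows, all of which KEGG placed in the AMPK signaling pathway, 1 passed as lower and none as higher (limma), where 6.07% and 6.15% of all rows did. None passed the fold threshold, and no further row had an unadjusted p under 0.05. The row that passed was prkaa1, the catalytic alpha-1 subunit, with 34.3, 36.1 and 31.0 TPM in the F libraries against 45.6, 43.4 and 45.7 TPM in the CK libraries. Its log2 change was -0.40 (95% interval -0.60 to -0.21, limma adjusted p = 0.0255), and the groups did not overlap. It lost significance without F1, CK1, CK2 or CK3, with adjusted p of 0.0276 to 0.0938 over the 6 fits.

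The alpha-2 row prkaa2 was lower in level, at 3.67, 5.76 and 3.75 TPM in the F libraries and 5.50, 3.76 and 3.22 TPM in the CK libraries. These values overlapped, and the log2 change of 0.07 had a 95% interval of -0.54 to 0.67. The alpha-1 row held 88.6% ± 2.12 of the alpha TPM in F and 91.6% ± 2.13 in CK (SD, n = 3 each, exact permutation p = 0.2). The summed alpha level was 38.2 ± 3.55 TPM in F and 49.1 ± 1.98 TPM in CK (SD, n = 3 each), without overlap (exact permutation p = 0.1).

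Among the beta subunits, which hold the complex together, prkab1b was the most abundant, with 127.5, 145.9 and 133.1 TPM in the F libraries and 131.5, 139.7 and 130.3 TPM in the CK libraries. Its log2 change was 0.02 with a 95% interval of -0.16 to 0.19, the narrowest interval among the members, so a change of the size seen in prkaa1 lies outside it. The prkab2 row averaged 16.4 TPM in F and 16.1 TPM in CK, with a log2 change of 0.03 (95% interval -0.21 to 0.27). The prkab1a row averaged 31.9 TPM in F and 36.7 TPM in CK, with a log2 change of -0.22 (95% interval -0.68 to 0.24). The summed beta level was 183.8 ± 17.6 TPM in F and 186.6 ± 6.50 TPM in CK (SD, n = 3 each, exact permutation p = 0.8).

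The gamma subunits bind AMP and ATP. The prkag2 row measured 23.1, 29.2 and 36.8 TPM in the F libraries and 34.5, 37.8 and 37.5 TPM in the CK libraries. It did not pass (log2 change -0.32, 95% interval -0.72 to 0.085, limma adjusted p = 0.307). The row prkag1 (DN1276) measured 20.7, 20.8 and 19.9 TPM in F and 17.1, 18.7 and 19.5 TPM in CK. Its groups did not overlap, but the log2 change was only 0.15 (95% interval -0.06 to 0.35) and did not pass. The row prkag1 (DN4112), gamma-1 in NR and gamma-2 in Swiss-Prot, averaged 2.93 TPM in F and 4.29 TPM in CK, with no overlap. Its log2 change of -0.44 (95% interval -0.99 to 0.11) did not pass (limma adjusted p = 0.299). The summed gamma level was 53.1 ± 6.16 TPM in F and 59.3 ± 2.2 TPM in CK (SD, n = 3 each, exact permutation p = 0.2).

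The MARK kinases phosphorylate microtubule-associated proteins and act in cell polarity. None of the 5 tested rows passed (limma), and 1 of them had an unadjusted p under 0.05. Of all rows tested, 6.15% passed as higher and 6.07% as lower. The mark4 row came nearest, with 18.6, 23.3 and 16.4 TPM in the F libraries against 13.7, 15.7 and 15.4 TPM in the CK libraries. All F libraries were above all CK libraries, but the log2 change of 0.35 had an unadjusted p of 0.049 and an adjusted p of 0.192 (limma). The mark2 row measured 48.3, 60.7 and 47.4 TPM in F and 48.9, 46.3 and 48.9 TPM in CK, a log2 change of 0.11 (95% interval -0.15 to 0.37). The mark3a row averaged 23.8 TPM in F and 23.6 TPM in CK, a log2 change of -0.02 (95% interval -0.44 to 0.40). The mark2 and mark3a rows belong to the same Trinity component, so reads they share could have been split between them. In both, the highest library was F2. The sum of these 3 rows was 95.3 ± 16.4 TPM in F and 86.6 ± 2.13 TPM in CK (SD, n = 3 each, exact permutation p = 0.6). The other 4 MARK-named rows, named by NR and not by Swiss-Prot, had group means of 0.76 to 1.44 TPM in F and 0.96 to 1.53 TPM in CK. Of these 4, mark4-like (DN6404) was also named MARK by KEGG. The 2 that could be tested did not pass.

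Over all 27 tested rows, the groups did not overlap in 13 (48.1%), beside 32.1% of all rows tested. The 13 include nuak2, nuak1 (DN4594) and sik3-like (DN10514 g6), which entered the test through the group where they were high. They also count each sik1 row and each nuak1 row separately. Among the 18 rows with a Swiss-Prot match, the order of the mean levels in F cells began with nuak1 (DN51), prkab1b, nuak1 (DN319), mark2 and sik1 (DN6166). In CK cells it began with nuak1 (DN319), nuak1 (DN51), prkab1b, mark2 and prkaa1. The F levels of sik1 (DN6166), 36.4 to 40.2 TPM, were above those of prkaa1, 31.0 to 36.1 TPM, in every F library, although prkab1a and prkag2 each had 1 F library within the sik1 range. In CK cells, sik1 (DN6166) at 3.73 to 4.95 TPM overlapped prkaa2 and prkag1 (DN4112), and apart from these only nuak2, sik2 and sik1 (DN760) were lower in mean. Against all rows tested, the level of sik1 (DN6166) stood at percentile 91.1 in F and 56.4 in CK, and that of sik2 at percentile 72.4 in F and 20.8 in CK.

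The kinases and partners upstream of these proteins were read from a list of 12 genes, 11 of which had a row. Of 11 tested rows, 2 passed as higher and 1 as lower, beside 6.15% and 6.07% of all rows tested, and the median log2 change was 0.11, beside -0.01 over all rows. The row of camkk1, which encodes a calcium-dependent kinase that can activate AMPK, measured 33.5, 38.7 and 37.8 TPM in the F libraries against 24.3, 20.0 and 21.2 TPM in the CK libraries (log2 change 0.72, limma adjusted p = 0.0087). The groups were apart. The row of its paralog camkk2, which also activates AMPK, measured 9.34, 13.0 and 15.7 TPM in the F libraries against 16.0, 21.2 and 31.4 TPM in the CK libraries. Every F library was below every CK library, but the log2 change of -0.78 did not pass (limma adjusted p = 0.14). The prkar1a row, a regulatory subunit of PKA, averaged 83.4 TPM in F and 54.3 TPM in CK (log2 change 0.61, limma adjusted p = 0.0116). It lost significance in 1 of the 6 fits that each left out 1 library. The row whose Swiss-Prot match was Prkar2a, and whose NR name was the type II-beta subunit, was listed at 0 TPM in all 3 F libraries against 6.06, 1.45 and 3.45 TPM in the CK libraries (limma adjusted p = 0.0275). It reached 1 TPM in CK libraries only and so entered the test through that group, and it lost significance when any 1 library other than CK2 was left out. The stk11 row, which encodes LKB1, measured 10.5, 10.7 and 10.3 TPM in F and 9.36, 8.73 and 9.38 TPM in CK, with a log2 change of 0.18 that did not pass (limma adjusted p = 0.349). The LKB1 partner row strada was lower in every F library than in every CK library, but did not pass (log2 change -0.41, limma adjusted p = 0.171). Neither the other partner rows stradb and cab39 (calcium binding protein 39, like 1 in NR) nor the PKA catalytic row prkaca passed.

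Of 7 further AMPK-related kinases, 3 had a row, and snrk had a pair of rows. Of these 4 rows, 2 passed as higher and 0 as lower (limma), where 6.15% and 6.07% of all rows did. Their median log2 change was 0.67, beside -0.01 over all rows. The melk row, a kinase of dividing cells, measured 10.9, 14.1 and 9.98 TPM in the F libraries against 5.67, 4.22 and 5.35 TPM in the CK libraries (log2 change 1.06, limma adjusted p = 0.0148). The snrkb row averaged 13.2 TPM in F and 7.26 TPM in CK (log2 change 0.76, limma adjusted p = 0.0305). The groups of both rows were apart. Of the 6 fits that each left out 1 library, snrkb lost significance in 5 and melk in 2. The other snrk row did not pass, with a log2 change of -0.19.

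**Figure D4:**
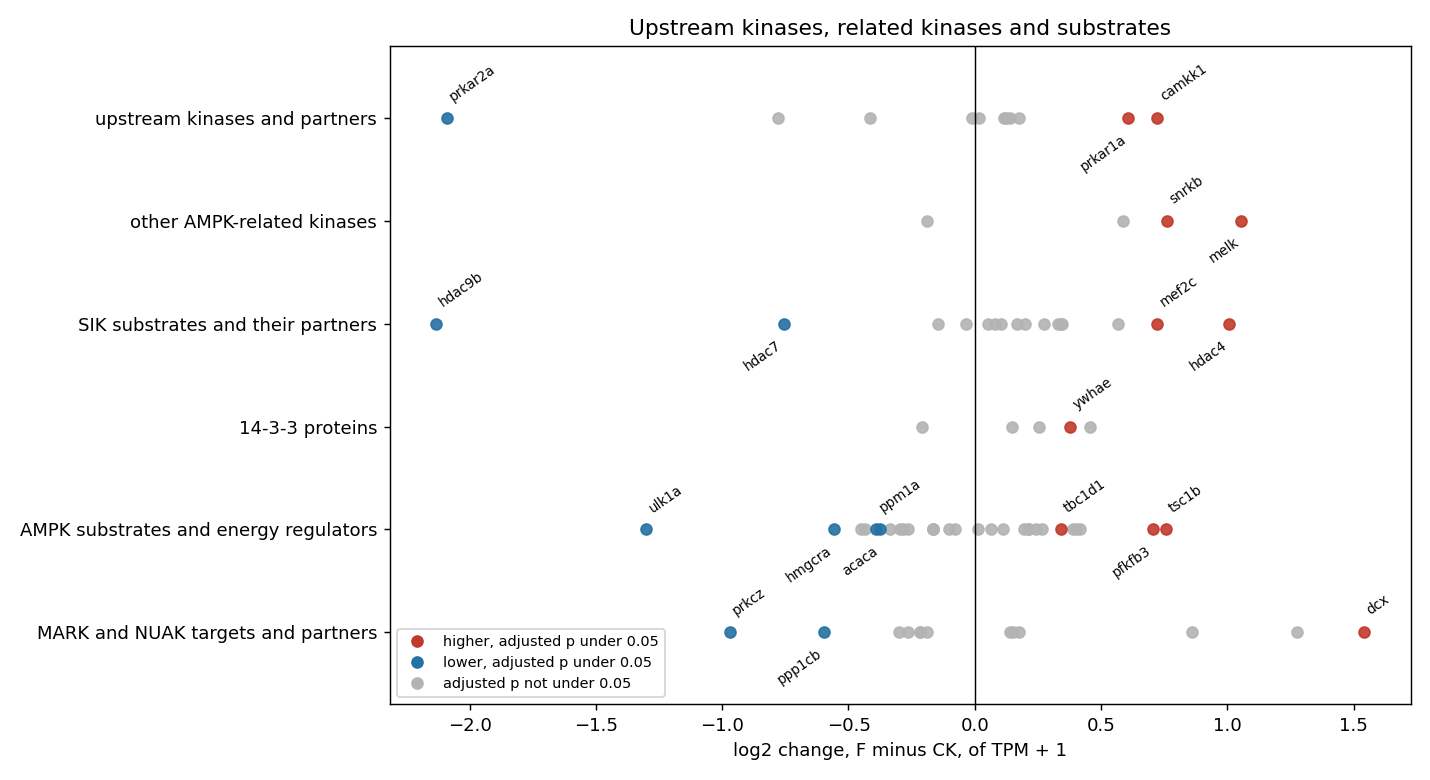
Log2 change of TPM + 1, F minus CK, of the 78 tested rows of 6 lists of upstream kinases, related kinases and substrates, 1 point per row, with the symbols of the 20 rows that passed an adjusted p of 0.05. Red points (11) were higher and blue points (9) lower in F, and every list but the 14-3-3 proteins and the other AMPK-related kinases holds both.

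The known substrates of the SIK kinases and their partners gave 16 tested rows, of which 2 passed as higher and 2 as lower, where 6.15% and 6.07% of all rows did, and the median log2 change was 0.18. The class IIa histone deacetylases, which repress MEF2, moved apart. The hdac9b row measured 2.86, 3.55 and 3.41 TPM in the F libraries against 15.5, 17.5 and 20.4 TPM in the CK libraries (log2 change -2.13, limma adjusted p = 0.000845). The hdac7 row measured 21.6, 24.8 and 21.2 TPM in the F libraries against 37.6, 37.9 and 40.7 TPM in the CK libraries (log2 change -0.76, limma adjusted p = 0.00446). Both were lower in every F library, and both kept an adjusted p under 0.05 when any 1 library was left out.

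The hdac4 row was higher, with 11.1, 12.9 and 8.97 TPM in the F libraries against 5.81, 4.59 and 4.43 TPM in the CK libraries (log2 change 1.01, limma adjusted p = 0.017). This call was lost without F1, CK2 or CK3, where the adjusted p reached up to 0.0707. The hdac5 row, at 5.17 to 6.36 TPM in F and 5.64 to 6.08 TPM in CK, did not pass. The row of mef2c, a transcription factor that these deacetylases bind, measured 69.7, 85.9 and 76.1 TPM in the F libraries against 43.3, 45.7 and 50.1 TPM in the CK libraries (log2 change 0.72, limma adjusted p = 0.00819). The groups were apart. The mef2a and mef2d rows were also higher in every F library than in every CK library, but did not pass. Their log2 changes were 0.57 and 0.35 (limma adjusted p = 0.127 and 0.18).

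None of the 4 CRTC coactivator rows passed (limma), and the smallest unadjusted p was 0.0582, for crtc3. The crtc3 row measured 8.20, 9.23 and 6.88 TPM in the F libraries and 6.12, 6.27 and 6.24 TPM in the CK libraries (log2 change 0.33, limma adjusted p = 0.214). The crtc2 row measured 7.81, 11.4 and 7.94 TPM in F and 8.88, 8.84 and 7.12 TPM in CK (log2 change 0.10, limma adjusted p = 0.78). Both crtc1 rows lay between 0.85 and 2.44 TPM in all libraries. The creb1 and crebbp rows did not pass either. Among 5 tested 14-3-3 rows, with a median log2 change of 0.25, only ywhae passed, as higher, where 6.15% of all rows did. Its mean was 389.0 TPM in F and 298.5 TPM in CK (log2 change 0.38, limma adjusted p = 0.0434). Of the 6 fits that each left out 1 library, ywhae lost significance in 5. The row ywhaz in Swiss-Prot, named 14-3-3 protein beta/alpha-A-like in NR, was the most abundant of the 5. It was at 1004 to 1420 TPM in F and 770.8 to 931.5 TPM in CK, and did not pass (limma adjusted p = 0.122).

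**Figure D5:**
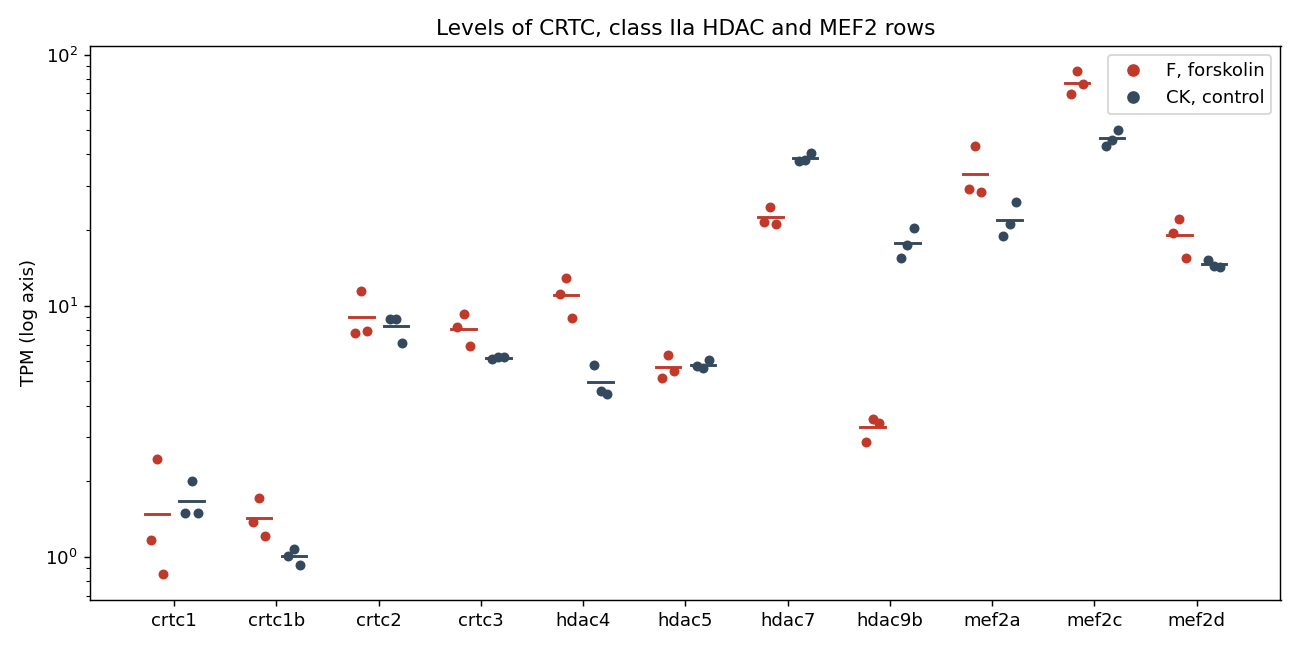
TPM on a log axis of the CRTC, class IIa HDAC and MEF2 rows, with 1 point per library, short lines at the means and F left of CK for each row. The hdac9b and hdac7 rows are lower in F, hdac4 and mef2c are higher, and none of the CRTC rows passed the test.

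Of 29 tested rows of AMPK substrates and energy regulators, 3 passed as higher and 4 as lower, where 6.15% and 6.07% of all rows did, and the median log2 change was -0.08. The largest of these changes was that of ulk1a, a kinase that starts autophagy, with 4.73, 4.60 and 4.07 TPM in the F libraries against 11.8, 12.4 and 13.2 TPM in the CK libraries (log2 change -1.30, limma adjusted p = 0.00216). Its groups were far apart, and the second row, ulk1, did not pass. The hmgcra row, the rate-limiting enzyme of cholesterol synthesis, averaged 32.8 TPM in F and 48.9 TPM in CK (log2 change -0.56, limma adjusted p = 0.0155). Of the rows that passed as higher, pfkfb3, which raises glycolytic flux, had a log2 change of 0.71 (limma adjusted p = 0.027) and tsc1b, a brake on mTOR, one of 0.76 (limma adjusted p = 0.0291). Of the 6 fits that each left out 1 library, pfkfb3 lost significance in 5, tsc1b in 4, hmgcra in 2 and ulk1a in 0. The rows of mtor, rptor, tsc2, srebf1 and sirt1 did not pass.

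Of 13 tested MARK and NUAK targets and partners, 1 passed as higher and 2 as lower, where 6.15% and 6.07% of all rows did, and the median log2 change was -0.19. The ppp1cb row, a catalytic subunit of protein phosphatase 1 and the most abundant of the list, measured 166.2, 165.2 and 177.5 TPM in the F libraries against 272.7, 261.4 and 237.0 TPM in the CK libraries (log2 change -0.60, limma adjusted p = 0.00605). Its groups were apart. The prkcz row, a polarity kinase, averaged 2.26 TPM in F and 5.34 TPM in CK (log2 change -0.97, limma adjusted p = 0.0303). It lost significance in all 6 fits that each left out 1 library. The dcx row, a microtubule-associated protein, measured 3.76, 6.83 and 2.18 TPM in the F libraries against 0.64, 0.79 and 0.64 TPM in the CK libraries (log2 change 1.54, limma adjusted p = 0.045). It reached 1 TPM in F libraries only and so entered the test through that group, and it lost significance when any 1 library other than F3 was left out. The mapt and map1b rows had log2 changes of 1.28 and 0.86 that did not pass. Of the 20 list rows that passed, 6 kept an adjusted p under 0.05 whichever single library was left out (camkk1, hdac7, hdac9b, mef2c, ulk1a and ppp1cb).

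The libraries and the cell type were checked on the whole table. Across all rows tested, libraries correlated at 0.875 to 0.897 within a group and at 0.828 to 0.857 between groups, and none stood apart. Some fibroblast genes were abundant, among them col1a2, thy1, dcn and lum, but so were krt8 and krt18b, which are keratins of simple epithelia. The fibroblast row fn1a was abundant too, averaging 971.4 TPM in F and 675.9 TPM in CK, and col5a1 averaged 178.1 and 376.9 TPM. Some other genes of both lists were at lower levels. The fibroblast row vim, named vimentin like in NR, averaged 10.58 TPM in F and 11.55 TPM in CK, percentiles 74.4 and 75.9 of all rows tested. The epithelial gene tp63 averaged 6.84 TPM in F and 6.33 TPM in CK, and grhl3 0.33 and 1.21 TPM. The epithelial marker epcam measured 32.5, 29.3 and 31.6 TPM in the F libraries against 90.5, 83.7 and 77.2 TPM in the CK libraries (log2 change -1.40, limma adjusted p = 0.000542). Of the 12 fibroblast genes 9 had rows, with a summed level of 3146 to 4680 TPM in F and 4967 to 5250 TPM in CK. Of 9 tested rows, 1 passed as higher (dcn) and 3 as lower (lum, col1a2 and thy1), where 6.15% and 6.07% of all rows did. The lum row averaged 275.8 TPM in F and 1441 TPM in CK (log2 change -2.40, limma adjusted p = 0.000745). The log2 changes of col1a2 and thy1 were -0.88 and -0.72. The dcn row averaged 1572 TPM in F and 882.7 TPM in CK (log2 change 0.84, limma adjusted p = 0.0167). Of the 8 epithelial genes 6 had rows, with a summed level of 5452 to 6062 TPM in F and 7044 to 7277 TPM in CK, and 2 rows were lower. The kdr-like row, the only endothelial marker matched, measured 1.43, 1.68 and 1.86 TPM in F against 9.35, 8.59 and 8.55 TPM in CK. Of 6 leukocyte, 6 muscle and 5 pigment genes, 2, 1 and 1 had rows, and each of these lists summed to at most 9.52 TPM in any library. The leukocyte row cd74b passed as higher, averaging 6.95 TPM in F and 3.86 TPM in CK (limma adjusted p = 0.0466). Some of these names are doubtful. The muscle row was desmin in NR but KRT24 in Swiss-Prot, and the pigment row mitfb was transcription factor E3b in NR. The part of these marker differences in the changes of the kinase rows was not tested, and in RNA from whole cultures, fewer cells of a type and less RNA per cell cannot be told apart.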

How the data were processed

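RNA-seq was available for 6 libraries of TCCF2022 cells (3 F and 3 CK). The authors deposited TPM for 61608 assembled genes. Their methods describe a Trinity assembly, BLAST+ annotation and TPM from RSEM 1.3.3, and the submitters' processing notes list DESeq2 1.24.0, Cufflinks 2.2.1 and TopHat2 2.1.1 as well, so the route to these values is not settled. TPM keeps no read counts, and limma was used in place of the count test of the study. The deposited group means were not used.

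Members were found by their NR and Swiss-Prot names. The members and gene lists were chosen with earlier results of these data known. List genes were matched by Swiss-Prot gene name, with paralogs a and b apart, or by NR name, and each was represented by its most abundant row.

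The model was fitted to log2(TPM + 1) by lmFit and eBayes with a trend (limma 3.58.1, R 4.3.3). Rows below 1 TPM in more than 3 libraries were left out, and two-sided p-values of the 37532 others were adjusted by Benjamini-Hochberg. Sums, shares and within-library gaps were compared by exact two-sided permutation tests. Every member row past an adjusted p of 0.05 and the most abundant tested row per gene name were given with their values, and from each list up to 4 rows with the smallest adjusted p and the most abundant row could be named. Rows named only as not passing were chosen outside this rule after their values were seen. So were the second rows of sik3, snrk and ulk1, and the rows hdac5, mef2a, mef2d, crtc2, crtc3, stk11 and strada. The procedure was tested on simulated data. Changes were planted there only in rows well above the filter, so that test did not cover rows near it. Tables were made in Python 3.11.15 with pandas 2.3.3, NumPy 2.4.6 and SciPy 1.17.1, and plots with matplotlib 3.10.9.

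The fits were repeated with each library left out, with TPM summed per gene name, with the replicate number as a block, with quantile or median-of-ratios scaling, with all rows or only those at 5 TPM, with a pseudocount of 0.1 and with eBayes untrended. Counting only rows with a Swiss-Prot match to a kinase of the rule was added after the data were examined.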

Additional observations from a re-analysis of the deposited data

How the results depend on the processing

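The rises of both sik1 rows and of sik2 and the fall of nuak1 (DN319) kept their direction and an adjusted p under 0.05 (limma) in every alternative, except that nuak1 summed over its rows changed by -0.31 (adjusted p = 0.234), which for nuak1 (DN51) turned the direction. Over these alternatives the log2 change was 2.82 to 3.14 for sik1 (DN6166), 3.02 to 3.54 for sik1 (DN760) and 2.1 to 2.72 for sik2. The sik3 row never passed (adjusted p 0.172 to 0.46).

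The replicate numbers did not pair the libraries: deviations of same-numbered F and CK libraries from their group means correlated at 0.006 to 0.009, and those of other pairs at -0.007 to 0. With the number as a block, 3 members were called higher and 1 lower, 3 passed as higher and 1 as lower, 655 of all rows were called higher and 799 lower, and 2 list rows passed as higher and 5 as lower. Without a filter, 1 member was called lower, and 3 passed as higher and 2 as lower. A filter at 5 TPM kept 15253 rows in place of 37532, of which 613 were called higher and 786 lower. Of the members, 1 was then called lower and 2 passed as lower. The rows nuak2, nuak1 (DN4594) and sik3-like (DN10514 g6) did not reach that filter and were not tested with it. Without the trend, 4 list rows passed as higher. With TPM summed per gene name, 0 members were called lower, 3 passed as higher and 1 as lower. Among rows with a Swiss-Prot match, 1 was called lower and 2 passed as lower.

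With each library left out in turn, 3 members were called higher and 1 to 2 lower, 3 to 4 passed as higher and 1 to 3 as lower, 696 to 1043 of all rows were called higher and 812 to 1163 lower, and 3 to 13 list rows passed as higher and 4 to 6 as lower. The log2 changes of prkaa2 (-0.11 to 0.25), prkab1b (-0.038 to 0.059), prkab2 (-0.014 to 0.091), mark2 (-0.004 to 0.17) and mark3a (-0.19 to 0.16) changed sign when 1 library was left out, and none of them passed in any alternative. The other scalings moved the median of all rows to -0.02 and 0.02. The cause of these differences was not tested. The rows under about 3 TPM (nuak2, nuak1 (DN4594) and sik3-like (DN10514 g6)) are the least certain of the calls, and since TPM keeps no read counts, their counting error is unknown.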
